A study of Homo sapiens with 2 samples.

Results

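Coagulation and fibrinogen genes are described here in Huh7, an established human hepatocellular carcinoma cell line, through 10 genes chosen by name: FGA, FGB, FGG, F2, F5, F7, F10, PROC, PLG and KNG1. All 10 were found among the 19927 gene symbols of the deposited count table, and all 10 passed a filter of a mean of at least 1 CPM (counts scaled to library size) that 12353 genes passed. Poly(A)-selected mRNA was sequenced from 1 culture given DMSO, the solvent control, and from 1 culture given homochlorcyclizine dihydrochloride, an antihistamine of the H1 receptor class, both harvested 48 h after the medium was changed. Its dose is not stated in the labels. Both libraries come from the same cell line in DMEM with fetal bovine serum, and each group is 1 library. No test between the conditions was therefore possible, each difference is one between these 2 libraries, and each interval is a 95% interval for counting error only.

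The liver makes most plasma clotting proteins and secretes them as inactive precursors. In the cascade, factor VII with tissue factor activates factor X, factor X with its cofactor factor V activates prothrombin, and thrombin cuts fibrinogen into fibrin. Protein C, once activated, inactivates factor V, plasmin dissolves fibrin, and kininogen carries bradykinin and takes part in contact activation. Prothrombin, factors VII and X and protein C need a vitamin K-dependent carboxylation to bind membranes, and fibrinogen is an acute-phase protein whose genes respond to interleukin-6.

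All 3 fibrinogen chains, the plasminogen gene PLG and the kininogen gene KNG1 were lower in the homochlorcyclizine library, with ratios to DMSO from 0.509 to 0.862. All 4 vitamin K-dependent protease genes were higher, from 1.05-fold for F2 to 1.53-fold for F10, and the interval of the cofactor gene F5 held 1. No gene of the 10 passed 2-fold in either direction, where 10.9% of all genes tested did (5.81% higher and 5.10% lower). At 1.5-fold, 4 were lower (FGA, FGG, PLG and KNG1) and 1 was higher (F10), where 14.1% of all genes were lower and 14.1% were higher (28.1% in all). The interval lay below 1 for 5 of the 10 genes and above 1 for 4, against 40.0% and 37.8% of all genes, so an interval that leaves out 1 was common at this depth. The median log2 ratio of the 10 genes was -0.07 and that of all genes tested was -0.01.

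**Figure D1:**
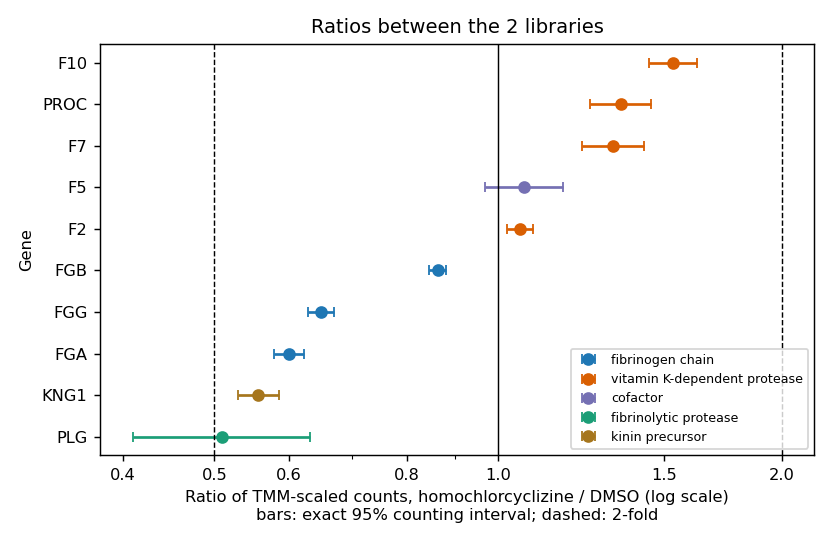
Ratio of TMM-scaled counts between the homochlorcyclizine and the DMSO library for each gene (horizontal log axis), coloured by role, with exact 95% counting intervals. The 5 genes below 1 are the fibrinogen chains, KNG1 and PLG, and F10 is highest at 1.53; no point lies beyond the dashed 2-fold lines, while the interval of PLG reaches past 0.5.

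The libraries held 38133894 counts (DMSO) and 40791119 counts (homochlorcyclizine), and TMM scaling, which corrects library size for composition, changed the totals by factors of 1.00 and 0.998. Together the 10 genes held 0.140% of all counts with DMSO and 0.116% with homochlorcyclizine. The liver origin of the line was checked on 10 hepatocyte markers, and all 10 passed the filter. None passed 2-fold, where 10.9% of all genes tested did. The markers summed to 24635 CPM with DMSO and 23010 CPM with homochlorcyclizine. Of their ratios 6 were above 1 and 4 below, where 48.9% of all genes were above 1. The largest part of the sum was AFP, at 11781 and 8540 CPM in the same order, a ratio of 0.725. APOB, SERPINA1 and TF were higher, at 1.44, 1.34 and 1.34. ALB, the albumin gene, was at 5244 CPM with DMSO and 5059 CPM with homochlorcyclizine, a ratio of 0.965 (0.959 to 0.971). Of 6 endothelial markers 1 passed the filter, PECAM1, with a ratio of 0.482, and KDR, TEK and CLEC4G were at 0 counts in both libraries. The endothelial list summed to 12.04 CPM with DMSO and 5.92 CPM with homochlorcyclizine. Of 6 megakaryocyte and platelet markers PF4, PPBP, GP9 and SELP were at 0 in both. As an approximate upper bound for a count of 0, 3 counts are 0.0785 CPM with DMSO and 0.0737 CPM with homochlorcyclizine. The 6 stellate and fibroblast markers, 3 of them past the filter, summed to 33.1 and 38.1 CPM in the same order, most of it from LUM (21.3 and 27.3 CPM). COL3A1 and ACTA2, under the filter, were lower, at 43 counts with DMSO and 5 with homochlorcyclizine and at 50 and 8. The 6 macrophage and leukocyte markers, also 3 past the filter, summed to 464 and 547 CPM, nearly all of it from LYZ. In bulk RNA, fewer expressing cells and less mRNA per cell cannot be told apart.

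Fibrinogen is a hexamer of paired alpha, beta and gamma chains, encoded by FGA, FGB and FGG side by side on chromosome 4 (GRCh38.p14, the same assembly as hg38). FGB lies at 154562980 to 154572807 on the plus strand, FGA at 154583126 to 154590742 and FGG at 154604136 to 154612656, both on the minus strand. The gap from FGB to FGA is 10318 bases and that from FGA to FGG 13393 bases. All 3 chains were lower with homochlorcyclizine, FGA and FGG more so than FGB.

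FGA, whose chain carries fibrinopeptide A, had 7523 counts (197 CPM) in the DMSO library and 4805 counts (118 CPM) in the homochlorcyclizine library. Its ratio was 0.600 (0.578 to 0.622), a log2 ratio of -0.74, and 9.58% of all genes tested had a lower one. FGG, whose chain holds a main fibrin crosslinking site, had 9455 counts (247 CPM) with DMSO and 6531 counts (160 CPM) with homochlorcyclizine. That gave a ratio of 0.648 (0.628 to 0.669) and a log2 ratio of -0.62, with 12.7% of all genes lower. FGB, which encodes the beta chain with fibrinopeptide B, had 19659 counts (514 CPM) with DMSO and 18061 counts (444 CPM) with homochlorcyclizine. It was nearest to 1 of the chains, at 0.862 (0.845 to 0.880), a log2 ratio of -0.21, and 33.8% of all genes were lower. The intervals of the 3 chains do not overlap. Summed over the chains, 36637 counts with DMSO stood against 29397 with homochlorcyclizine, a ratio of 0.753 (0.742 to 0.765). The median log2 ratio of the chains was -0.62.

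FGB differed least between the libraries, and the make-up of the fibrinogen mRNA differed with it. Per length, in the FPKM values the authors deposited, FGB made up 41.8% of the summed level of the chains with DMSO and 49.5% with homochlorcyclizine. FGG made up 38.9% with DMSO and 34.7% with homochlorcyclizine, and FGA 19.2% and 15.8%. The FPKM of FGB was 2.18 times that of FGA with DMSO (2.12 to 2.23) and 3.13 times with homochlorcyclizine (3.03 to 3.23). FGG over FGA moved less, from 2.03 (1.97 to 2.09) to 2.19 (2.11 to 2.27). FGA was the least abundant chain in both libraries. These shares depend on gene length: the deposited counts and FPKM imply 3521 bases for FGB, longer than the longest of its GENCODE 29 transcripts at 1975 bases. With the length of the APPRIS principal transcript of each gene, an alternative chosen after seeing the data, FGB made up 57.3% with DMSO and 64.6% with homochlorcyclizine and FGA 11.8% and 9.22%. The factor by which each ratio of chains differed between the libraries does not depend on length.

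**Figure D2:**
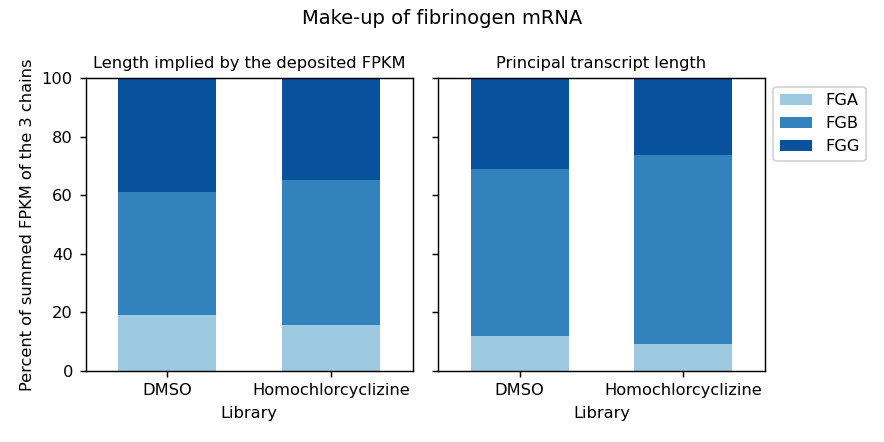
Share of each chain (percent of the summed FPKM of FGA, FGB and FGG) in the DMSO and the homochlorcyclizine library, with the gene lengths implied by the deposited values (left) and with principal transcript lengths (right). In both panels the FGB share is larger and the FGA share smaller in the homochlorcyclizine library.

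The 250 bases before the annotated start of each chain are shown because the 3 genes were lower together, and those of F7 and F10 because these neighbours were higher together. Sequences are from RefSeq on GRCh38.p14, 5′ to 3′ on the strand of the gene. Capitals mark the letters CTGGGA, the core of the interleukin-6 response element of fibrinogen genes, on either strand (reversed as TCCCAG). The windows are chr4:154590743-154590992 (minus) for FGA, chr4:154562730-154562979 (plus) for FGB, chr4:154612657-154612906 (minus) for FGG, chr13:113105541-113105790 (plus) for F7 and chr13:113122549-113122798 (plus) for F10.
FGA: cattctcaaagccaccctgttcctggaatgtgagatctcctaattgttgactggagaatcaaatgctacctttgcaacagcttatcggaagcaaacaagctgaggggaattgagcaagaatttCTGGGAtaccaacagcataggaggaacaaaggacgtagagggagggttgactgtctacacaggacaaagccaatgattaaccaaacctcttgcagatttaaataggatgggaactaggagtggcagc
FGB: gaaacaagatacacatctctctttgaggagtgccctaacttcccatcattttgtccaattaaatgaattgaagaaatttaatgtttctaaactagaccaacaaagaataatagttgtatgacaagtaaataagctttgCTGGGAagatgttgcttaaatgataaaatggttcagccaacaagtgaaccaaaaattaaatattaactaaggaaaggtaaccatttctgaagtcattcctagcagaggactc
FGG: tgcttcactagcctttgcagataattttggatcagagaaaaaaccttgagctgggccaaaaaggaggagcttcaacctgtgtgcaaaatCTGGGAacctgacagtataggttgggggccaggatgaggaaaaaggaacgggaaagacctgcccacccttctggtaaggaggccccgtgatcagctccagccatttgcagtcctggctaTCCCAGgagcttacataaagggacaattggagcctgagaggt
F7: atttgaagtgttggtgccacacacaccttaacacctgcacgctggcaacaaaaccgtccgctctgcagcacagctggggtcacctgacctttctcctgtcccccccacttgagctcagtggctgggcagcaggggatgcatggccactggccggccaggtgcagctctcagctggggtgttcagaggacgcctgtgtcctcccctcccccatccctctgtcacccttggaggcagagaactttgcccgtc
F10: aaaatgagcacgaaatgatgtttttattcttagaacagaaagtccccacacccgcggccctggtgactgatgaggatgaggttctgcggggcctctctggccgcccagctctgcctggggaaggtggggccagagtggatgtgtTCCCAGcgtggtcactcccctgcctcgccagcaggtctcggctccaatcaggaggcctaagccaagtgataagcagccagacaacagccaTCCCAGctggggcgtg

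Motifs were searched on both strands from 250 bases before to 50 bases after each start, in the 300 bases of the RefSeq windows of all 10 genes. CTGGGA was present in 7 of the 10 windows (FGA, FGB, FGG, F2, F5, F10 and PLG), against 35.0% of 15842 protein-coding promoters. In the fibrinogen windows its first base lay 127 bases before the start of FGA, 112 before FGB, and 161 before FGG with a reverse match ending 37 bases before that start. TTGCNNAA, a C/EBP-type motif, was present in 3 windows (FGA, FGB and KNG1; 8.36% of promoters), and TGTTTNC, a FOXA-type motif, in 2 (FGA and KNG1; 14.6%). The windows of FGA, FGB and KNG1 had 47%, 32.7% and 43% G and C bases, against a median of 62.7% over the 15842 promoters. The shares are not matched for base composition, so they do not show that a motif is more frequent here than in like windows. The windows of F7 and PROC held none of the 3 motifs, and no match overlapped another. Windows of genes that were lower and of genes that were higher both held CTGGGA. A match is a run of letters and was not tested for binding.

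**Figure D3:**
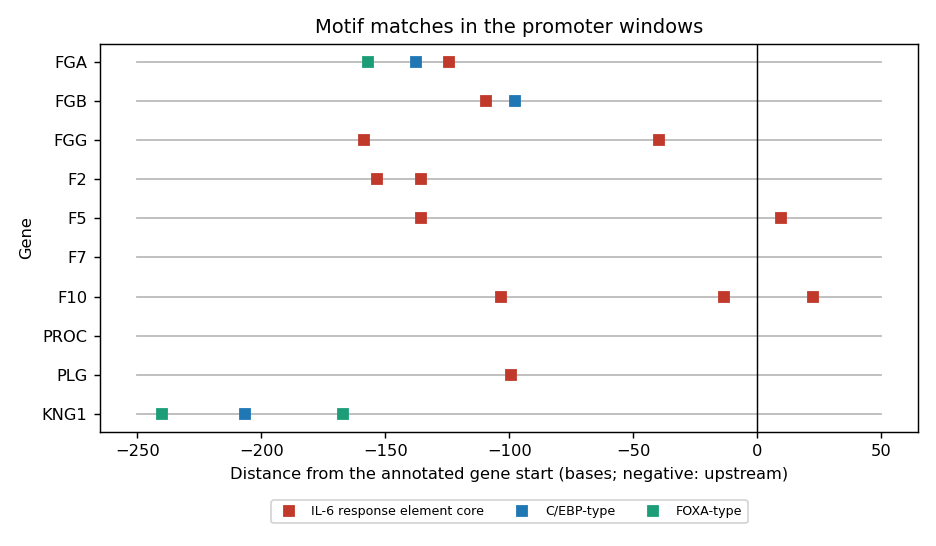
Position of each motif match relative to the annotated gene start (horizontal axis, bases) in the 300-base window of each gene, one grey line per gene. CTGGGA matches lie in 7 windows, and the F7 and PROC windows have no match.

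The vitamin K-dependent protease genes were all higher with homochlorcyclizine, together 14559 counts against 11502 with DMSO, a ratio of 1.19 (1.16 to 1.22). F10 (chromosome 13, 113122799 to 113149529) encodes factor X, the protease that cuts prothrombin. It had 1818 counts (47.6 CPM) with DMSO and 2970 counts (73.0 CPM) with homochlorcyclizine, and was 1.53-fold higher (1.45 to 1.63; log2 ratio 0.62), above 87.0% of all genes tested. F7 (chromosome 13, 113105791 to 113120685) encodes factor VII, which starts the extrinsic pathway, and ends 2113 bases before F10. It had 1185 counts (31.0 CPM) with DMSO and 1672 counts (41.1 CPM) with homochlorcyclizine, 1.32-fold higher (1.23 to 1.43; log2 ratio 0.41). The intervals of these neighbours do not overlap, and both genes were above 1.

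PROC (chromosome 2, 127418427 to 127429242) encodes protein C, the anticoagulant protease. It had 1187 counts (31.1 CPM) with DMSO and 1706 counts (41.9 CPM) with homochlorcyclizine, 1.35-fold higher (1.25 to 1.45; log2 ratio 0.43), close to F7 and within its counting interval. The anticoagulant PROC and the procoagulant F7 were thus higher by about the same amount. F2 (chromosome 11, 46719213 to 46739506) encodes prothrombin and was the most abundant of the 4. It had 7312 counts (191 CPM) with DMSO and 8211 counts (202 CPM) with homochlorcyclizine, a ratio of 1.05 (1.02 to 1.09; log2 ratio 0.08). Relative to F10, F2 was therefore less abundant with homochlorcyclizine: the FPKM of F2 was 3.01 times that of F10 with DMSO (2.86 to 3.17) and 2.07 times with homochlorcyclizine (1.98 to 2.16).

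F5 (chromosome 1, 169511951 to 169586481) encodes factor V, the cofactor of factor X in the prothrombinase complex. It had 827 counts (21.6 CPM) with DMSO and 938 counts (23.0 CPM) with homochlorcyclizine, a ratio of 1.06 (0.969 to 1.17; log2 ratio 0.09). A difference between the libraries was not detectable for F5 at this depth. The FPKM of F2 over that of F5 was 40.6 with DMSO and 40.2 with homochlorcyclizine, with overlapping intervals (37.8 to 43.6 and 37.5 to 43.0).

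Plasminogen and kininogen had the lowest ratios of the 10. PLG (chromosome 6, 160702193 to 160754097) encodes the precursor of plasmin and had 247 counts (6.46 CPM) with DMSO and 134 counts (3.29 CPM) with homochlorcyclizine. Its ratio was 0.509 (0.410 to 0.631; log2 ratio -0.97), just inside the 2-fold limit, and 5.47% of all genes tested were lower. It was the least counted of the 10, and its wide interval overlaps those of KNG1, FGA and FGG. Reads of PLG may be shared with near-identical copies of part of it. PLGLB1 had 6 counts with DMSO and 26 with homochlorcyclizine, PLGLB2 had 8 and 12, and LPA had 0 in both. The sum of PLG, PLGLB1 and PLGLB2 was 261 counts with DMSO and 172 with homochlorcyclizine, a ratio of 0.619 (0.507 to 0.753). The direction was the same with the copies added, and the ratio was nearer to 1.

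KNG1 (chromosome 3, 186717359 to 186744410) encodes kininogen, the precursor of bradykinin and a cofactor of contact activation. It had 4135 counts (108 CPM) with DMSO and 2452 counts (60.2 CPM) with homochlorcyclizine, a ratio of 0.557 (0.529 to 0.585; log2 ratio -0.84). Of all genes tested, 7.35% had a lower ratio. Its interval lies below those of FGG and FGB and meets that of FGA.

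Levels of the genes were compared with each other only per length, as deposited FPKM. In the DMSO library they ran from 146 FPKM for FGB to 2.37 for F5, a range of 61.7-fold. From the top the order was FGB, FGG (136), F2 (96.4), FGA (67.3), KNG1 (39.3), F10 (32.0), PROC (17.0), F7 (10.1), PLG (2.74) and F5. PLG and F5 could not be told apart by their counting intervals, and each other pair of neighbours in that order could. In the homochlorcyclizine library the order was FGB (126), F2 (101), FGG (88.0), F10 (48.9), FGA (40.2), PROC (22.9), KNG1 (21.8), F7 (13.3), F5 (2.52) and PLG (1.39). There F2 stood above FGG, F10 above FGA, and F5 above PLG. PROC and KNG1 could not be told apart, and each other pair of neighbours could. With principal transcript lengths FGB stayed first in both libraries, while F5 stood above PLG with DMSO and KNG1 above PROC with homochlorcyclizine. The crossings of FGG by F2 and of FGA by F10 were present with both lengths.

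**Figure D4:**
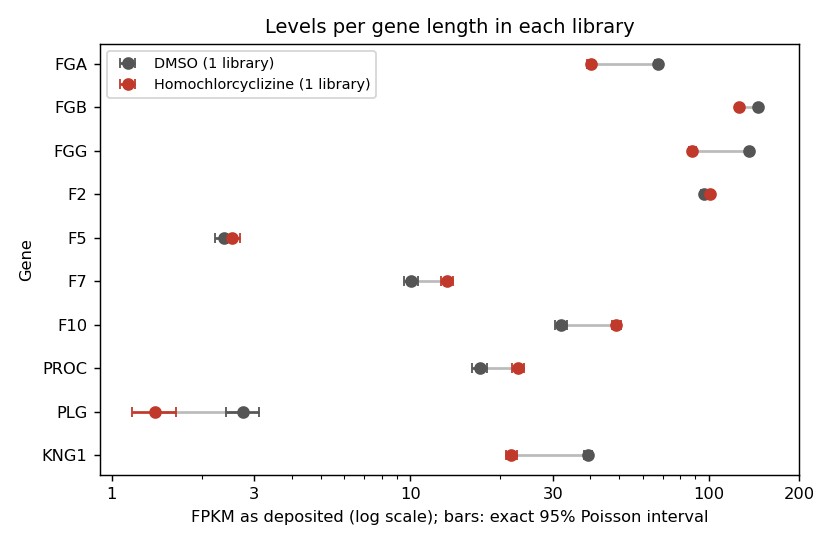
Deposited FPKM of each gene (horizontal log axis) in the DMSO library (grey) and the homochlorcyclizine library (red), with exact 95% Poisson intervals of the counts. FGB is highest in both libraries, at 146 and 126 FPKM, and the points of FGA, FGG, PLG and KNG1 shift to the left with homochlorcyclizine while those of F7, F10 and PROC shift to the right.

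Other genes of haemostasis were taken from 9 lists of 95 genes, 71 of which passed the filter. Of the 71, 6 were at least 2-fold higher (8.45%, against 5.81% of all genes) and 5 at least 2-fold lower (7.04%, against 5.10%). Their median log2 ratio was -0.02. F12 and F2RL2 among the higher genes and HP among the lower passed the filter only through the library where they were higher. The shares are therefore given as description only. In the contact and intrinsic pathway 3 of 6 genes passed the filter. F12, which encodes factor XII, was 2.53-fold higher (1.55 to 4.28) at a low level, 0.602 CPM with DMSO and 1.52 CPM with homochlorcyclizine. F8, the cofactor factor VIII, was at 0.785 and 1.35 CPM in the same order, a ratio of 1.72 (1.08 to 2.78), and F11 had a ratio of 0.892 (0.720 to 1.11). F9, the vitamin K-dependent factor IX, was at 0 counts in both libraries. F8 and F12 passed the filter only through the homochlorcyclizine library, so no median is given for this list.

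Among tissue factor and fibrin crosslinking genes, 3 of 4 passed the filter, 1 was at least 2-fold lower and none was 2-fold higher. The shares over all genes tested were 5.10% lower and 5.81% higher. F13B, the carrier subunit of factor XIII, was at 6.49 CPM with DMSO and 2.85 CPM with homochlorcyclizine, a ratio of 0.439 (0.349 to 0.550). F3, which encodes tissue factor, the partner of factor VII, was at 9.89 and 10.0 CPM, a ratio of 1.02 (0.881 to 1.17). The transglutaminase gene TGM2 had a ratio of 0.665 (0.625 to 0.708), and the list's median was -0.59.

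Of 10 anticoagulant genes 7 passed the filter, with 3 ratios above 1 and 4 below and a median log2 ratio of -0.02. Over all genes tested 48.9% were above 1 and 10.9% passed 2-fold. SERPINA10, an inhibitor of factor X, was at 15.3 CPM with DMSO and 6.98 CPM with homochlorcyclizine, a ratio of 0.455 (0.393 to 0.525), the only one past 2-fold. SERPINA5, the protein C inhibitor, was 1.62-fold higher (1.56 to 1.69). TFPI, which encodes the tissue factor pathway inhibitor, was 1.39-fold higher (1.35 to 1.43). Its relative TFPI2 had a ratio of 0.561 (0.422 to 0.741). PROS1, which encodes the cofactor of protein C and was added after its values were seen, was at 236 CPM with DMSO and 233 CPM with homochlorcyclizine, a ratio of 0.989 (0.961 to 1.02). It is vitamin K-dependent like PROC, whose ratio was 1.35.

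The fibrinolysis list had the most genes past 2-fold, 2 higher and 2 lower of 10 that passed the filter. Among all genes tested 5.81% were that much higher and 5.10% lower, and the lists differ in length. Of the 10, 8 had ratios below 1, where 48.9% of all genes were above 1. The median log2 ratio of the list was -0.76. PLAU, the urokinase gene, whose product activates plasminogen, was at 10.4 CPM with DMSO and 4.08 CPM with homochlorcyclizine, a ratio of 0.391 (0.324 to 0.469). PLAUR, the urokinase receptor gene, had a ratio of 0.572 (0.399 to 0.814). The plasminogen receptor genes PLGRKT and S100A10 had ratios of 0.554 (0.473 to 0.648) and 0.591 (0.577 to 0.604). These 3 receptor genes did not pass 2-fold. PLAT, which encodes the tissue-type activator of plasminogen and was added after its values were seen, was under the filter with 6 counts with DMSO and 8 with homochlorcyclizine, a ratio of 1.25 (0.381 to 4.38). Inhibitors of fibrinolysis went both ways. SERPINE2, an inhibitor of thrombin and of plasminogen activators, was at 16.8 CPM with DMSO and 89.4 CPM with homochlorcyclizine, 5.32-fold higher (4.89 to 5.79). CPB2, the carboxypeptidase that removes plasminogen-binding sites from fibrin, was lower, at 13.1 and 4.79 CPM, a ratio of 0.366 (0.309 to 0.433).

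Of 6 receptors for thrombin-type proteases and kinins, 3 passed the filter. F2RL2, a thrombin receptor gene, was 3.96-fold higher (2.59 to 6.27) at 0.707 CPM with DMSO and 2.80 CPM with homochlorcyclizine, which alone took it past the filter. The main thrombin receptor gene F2R had a ratio of 1.11 (1.04 to 1.20) and F2RL1 one of 1.10 (1.05 to 1.16). The bradykinin receptor genes BDKRB1 and BDKRB2 were at 0 counts in both libraries.

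The vitamin K cycle, which serves F2, F7, F10 and PROC, had 6 of 7 genes past the filter, none past 2-fold, and a median log2 ratio of 0.01. GGCX, the carboxylase that modifies the clotting factors, was at 93.8 CPM with DMSO and 117 CPM with homochlorcyclizine, a ratio of 1.24 (1.19 to 1.30). VKORC1, the warfarin-sensitive reductase, had a ratio of 1.03 (0.958 to 1.11) and its paralog VKORC1L1 one of 0.881 (0.853 to 0.909). Of the other quinone reductases NQO1 had a ratio of 1.28 (1.25 to 1.31) and AIFM2 one of 0.988 (0.936 to 1.04). CYP4F2, which degrades vitamin K, was under the filter with 8 counts and 17. Neither these 6 genes nor the 4 protease genes passed 2-fold, where 10.9% of all genes tested did. Lists this short therefore say little about that share.

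All 7 genes of factor processing and secretion passed the filter, with a median log2 ratio of 0.13. None passed 2-fold, where 10.9% of all genes tested did. LMAN1 and MCFD2 form the cargo receptor that carries factors V and VIII out of the endoplasmic reticulum. LMAN1 had a ratio of 0.824 (0.796 to 0.853) and MCFD2 one of 1.15 (1.12 to 1.20). FURIN, the protease that removes propeptides, was at 369 CPM with DMSO and 534 CPM with homochlorcyclizine, 1.45-fold higher (1.42 to 1.48). The tyrosine sulfotransferase gene TPST1 was 1.59-fold higher (1.51 to 1.68).

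The interleukin-6 and acute-phase list had 11 of 20 genes past the filter, 2 of them at least 2-fold higher, 1 at least 2-fold lower, 8 above 1, and a median log2 ratio of 0.53. IL6R, the interleukin-6 receptor gene, was at 25.9 CPM with DMSO and 53.2 CPM with homochlorcyclizine, 2.05-fold higher (1.90 to 2.21). STAT3, the transcription factor downstream of it, was 1.60-fold higher (1.54 to 1.66). SOCS3, of the same list and added after its values were seen, was lower, with a ratio of 0.728 (0.615 to 0.862). SERPINA3, an acute-phase inhibitor of chymotrypsin-type proteases, was at 27.3 and 71.0 CPM, 2.60-fold higher (2.42 to 2.79), and the fibrinogen-like gene FGL1 was 1.51-fold higher (1.41 to 1.63). HP, the haptoglobin gene, was lower, at 2.51 and 0.442 CPM, 5.68-fold lower (3.41 to 9.99), and passed the filter only through the DMSO library. ORM1, an acid glycoprotein gene, had a ratio of 0.612 (0.519 to 0.720). CRP, SAA4 and LBP were at 0 counts in both libraries. The acute-phase genes therefore included both directions, as the 3 fibrinogen chains (lower) and FGL1 (higher) did.

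All 21 liver transcription factors passed the filter and none passed 2-fold, where 10.9% of all genes tested did. Of their ratios 8 were above 1 and 13 below, where 48.9% of all genes were above 1. Their median log2 ratio was -0.08. HLF, a factor of the PAR bZIP family, was lowest at 0.581 (0.517 to 0.653), NR2F2 had a ratio of 0.686 (0.635 to 0.742), and CEBPB was highest at 1.63 (1.56 to 1.72). HNF4A and CEBPA, added after their values were seen because they are known regulators of clotting factor genes, had ratios of 0.949 (0.926 to 0.972) and 0.994 (0.974 to 1.01).

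**Figure D5:**
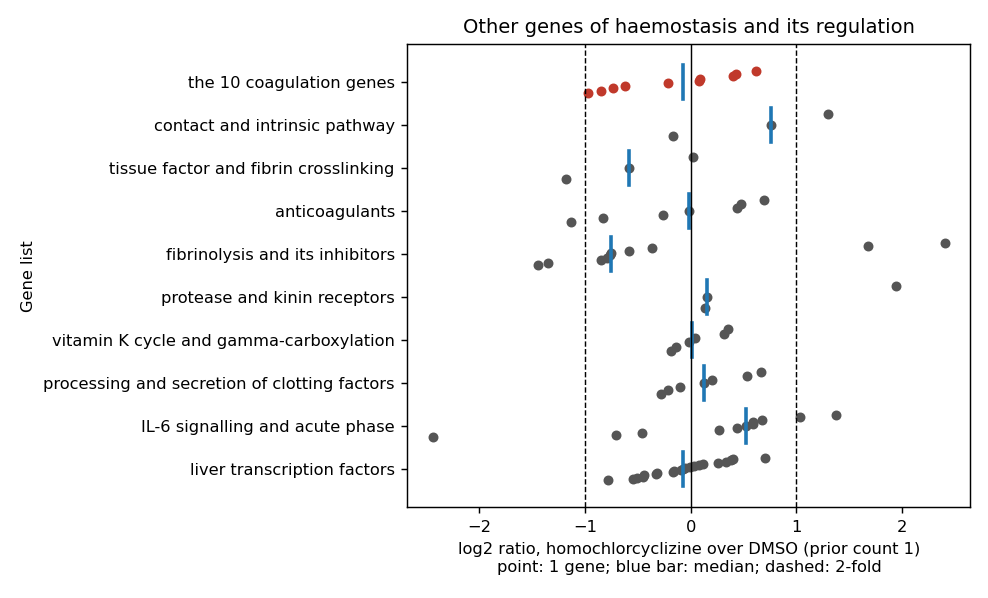
log2 ratio of each gene that passed the filter (horizontal axis), by list, with blue bars for the medians and dashed lines at 2-fold; the red points are the 10 coagulation genes. The 10 genes lie between -0.97 and 0.62, while SERPINE2 of the fibrinolysis list is highest at 2.41 and HP of the acute-phase list lowest at -2.44.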

How the data were processed

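Raw counts per gene symbol and FPKM values (counts scaled to gene length and library total) are those the authors deposited for 2 libraries of poly(A)-selected mRNA. Columns were tied to samples through the labels' descriptions. The build was hg38, per the submitters' processing notes; aligner, counting program, strand setting and annotation are not stated there or in the labels. FPKM ratios between the libraries matched ratios of counts over library totals to 3.13e-05% in 14778 genes counted in both, so FPKM is the same measurement per length.

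TMM factors came from edgeR 4.0.16 under R 4.3.3, and all other values from Python 3.11.15 (scipy 1.17.1, numpy 2.4.6, pandas 2.3.3). Ratios are scaled counts with homochlorcyclizine over those with DMSO, with exact 95% Clopper-Pearson intervals given the summed count. log2 ratios add a prior count of 1. Intervals for 1 level are exact Poisson intervals, and those for a ratio of FPKM values are normal on the log scale. PCR copies are not independent molecules, so all cover counting error only. A gene passed 2-fold where its log2 ratio reached that size and its interval left out 1. On simulated data with Poisson error, this called 100% of 200 genes changed 3-fold and 0 of those changed 1.5-fold. False calls numbered 1 among 12346 genes in the 3-fold run and 0 in the 1.5-fold run. The simulated data held no spread between cultures, and the 2-fold limit itself keeps out 1.5-fold changes. These runs therefore check the calculation only and give no rate of false calls for these libraries. With 1 library per group there is no p-value.

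The members and lists were chosen with earlier results of these data known. Named are the 10 genes, the genes of each list past 2-fold, up to 3 others of each list with the largest absolute log2 ratio, the vitamin K genes, LMAN1, MCFD2, FURIN, the copies of PLG, ALB and the neighbours of the 10 genes past the filter. A few of these genes are left out of the text. Gene positions and promoters are from RefSeq on GRCh38.p14, matched by symbol for 10 of 10 genes, and count from 1. FGB, PROC and PLG have 2 promoter entries each, and the one at the outermost gene start was used. The alternatives were total count, DESeq2 (1.42.0) and upper quartile scaling, a 1.5-fold rule, no filter or one of 5 CPM, a prior count of 5, and the FPKM ratio with a pseudocount of 0.1.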

Additional observations from a re-analysis of the deposited data

How the results depend on the processing

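The log2 ratios of the 10 genes kept their sign in all 69 values under the alternatives listed with the processing, moved by at most 0.04, and stayed within the counting interval of the main value in 68; the exception was FGB with upper quartile scaling, at -0.18. No gene of the 10 passed 2-fold under any scaling, filter, prior count or FPKM ratio. With a 1.5-fold rule 1 gene was higher and 4 were lower. The same rule gave 1736 higher and 1736 lower among all genes and 13 higher and 14 lower in the lists. Without a filter all genes gave 1197 higher and 946 lower, and the lists 9 higher and 9 lower of 84 genes, against 6 and 5 of 71. With a filter of 5 CPM, which leaves out PLG, the lists gave 4 higher and 3 lower of 63 genes, and the median log2 ratio of the remaining 9 genes was 0.076, against -0.07 for all 10. With principal transcript lengths, chosen after seeing the data, FGA, FGB and FGG made up 11.8%, 57.3% and 30.9% of the fibrinogen FPKM with DMSO and 9.22%, 64.6% and 26.2% with homochlorcyclizine, since this length is shorter for FGB and longer for FGA. Summed with its copies, PLG had a log2 ratio of -0.69. No library could be left out, and no paired analysis was possible because each group has 1 library and the labels give no replicate number. Spread between cultures was not measured, so none of these ranges covers it.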

Other observations

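The genes next to the 10 coagulation genes, taken as the 2 nearest genes on each side that the RefSeq table types as protein-coding, numbered 28, of which 17 passed the filter. Among the 28, F10-AS2 is named as an antisense gene and has no row in the count table. Of the 17, 10 had ratios above 1 and 7 below, where 48.9% of all genes tested were above 1, and 3 passed 2-fold, where 10.9% of all genes did. DCHS2, which encodes a large cadherin and lies beyond PLRG1 from the fibrinogen genes, was at 6.65 CPM with DMSO and 19.8 CPM with homochlorcyclizine, 2.97-fold higher (2.58 to 3.44), while the nearest neighbour PLRG1, a splicing factor gene, had a ratio of 0.915 (0.877 to 0.954). On the other side of the fibrinogen genes LRAT and RBM46 were at 0 counts in both libraries. Upstream of F7 and F10, MCF2L, a guanine nucleotide exchange factor gene, had a ratio of 1.36 (1.15 to 1.61) and ATP11A, a phospholipid flippase gene, one of 1.51 (1.47 to 1.55). PROZ, the vitamin K-dependent gene after F10, had 8 counts with DMSO and 12 with homochlorcyclizine.

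Next to KNG1, RFC4, a subunit of the replication clamp loader, was at 81.2 CPM with DMSO and 33.8 CPM with homochlorcyclizine, a ratio of 0.417 (0.391 to 0.444), and EIF4A2, a translation initiation helicase gene, had a ratio of 1.06 (1.04 to 1.08). HRG, the plasma protein gene before KNG1 and under the filter, was added after its values were seen. It had 26 counts with DMSO and 4 with homochlorcyclizine, a ratio of 0.144 (0.0366 to 0.416). Next to PLG, MAP3K4 had a ratio of 0.542 (0.497 to 0.591) and SLC22A3 one of 1.01 (0.874 to 1.16). Beside PROC, LOC124908047 was at 2.36 CPM with DMSO and 5.18 CPM with homochlorcyclizine, 2.20-fold higher (1.71 to 2.85).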
